A study of Mus musculus with 9 samples.

Results

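The 10 genes described here are 3 Notch receptors (Notch1, Notch2 and Notch3), 3 ligands (Dll1, Dll3 and Jag1) and 4 transcriptional targets of the pathway (Hes1, Hes5, Hey1 and Hey2). They were taken by symbol from a table of raw counts with 24503 gene rows, and all 10 passed the filter on low counts that left 13560 genes for testing, Hey2 with the fewest counts. The counts come from bulk RNA sequencing of primary mouse neural stem cells of the embryonic cortex (E13.5), all wild type with the Phf2flox/flox allele, enriched as neurospheres and grown on laminin in NeuroCult medium with FGF and EGF. The cells were infected with virus carrying a short hairpin RNA: shRad21_2 or shRad21_1, both directed at Rad21, or the non-targeting shNT. Each group had 3 libraries, 9 in all, with 34780003 to 46644607 counts per library. No source used here gives the time from infection to harvest. Nor do the labels say whether the libraries of a group came from separate cultures or animals, so a p-value measures only how far the libraries spread, and that spread may be technical.

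Notch receptors sit in the membrane of a cell and are activated by Delta-like (Dll) and Jagged (Jag) ligands on its neighbours. Activation releases the intracellular part of the receptor by proteolytic cleavage, and this fragment joins the DNA-binding protein RBPJ and switches on the Hes and Hey genes, which encode basic helix-loop-helix repressors. In the embryonic cortex the pathway is known for keeping progenitors undifferentiated, since Hes1 and Hes5 repress proneural genes. Rad21 encodes the kleisin subunit of cohesin, the ring that holds sister chromatids together and shapes chromatin loops in interphase.

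Levels are CPM, which are counts put on a shared library size with TMM factors, given for replicates 1, 2 and 3 of a group in that order. Fold changes are on the log2 scale, each with a standard error (SE) from edgeR, and a gene is called where the edgeR quasi-likelihood p, adjusted by Benjamini-Hochberg over all 13560 genes, is under 0.05. Rad21 itself had 82.0, 91.2 and 82.5 CPM in shRad21_2 libraries, 187, 174 and 178 CPM in shRad21_1 libraries, and 531, 450 and 456 CPM in shNT libraries. The groups did not overlap, and Rad21 was lower with both hairpins, with a log2 fold change against shNT of -2.49 (SE 0.09, adjusted p = 2.83e-07) for shRad21_2 and -1.41 (SE 0.09, adjusted p = 0.000166) for shRad21_1.

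With shRad21_2 against shNT, 7 of the 10 genes were called: Notch2 was higher, and Notch1, Notch3, Dll3, Jag1, Hey1 and Hey2 were lower. Hey2 passed the filter through its shNT libraries, the group in which it is high, so its call is conditional on that level; of the other 9 genes, 6 were called. The same comparison called 43.6% of all genes tested, 21.1% as higher and 22.5% as lower. With shRad21_1 against shNT, Dll3 was the 1 gene of 10 called, and it was lower. That share lies near the background, which was 9.82% of all genes tested, 4.19% as higher and 5.63% as lower. With shRad21_2 against shRad21_1, Notch3, Jag1 and Hey1 were lower, 3 of 10 genes, against a background of 26.3% of all genes tested, 11.9% as higher and 14.4% as lower. The median log2 fold change of the 10 genes was -1.02 for shRad21_2 against shNT and -0.46 for shRad21_1 against shNT. It was -0.40 for shRad21_2 against shRad21_1. For all genes tested the medians were 0.01, 0.01 and 0 in the same order. The medians of the 10 genes include Hey2 (-2.44, -0.73 and -1.71 likewise), which was tested because of its shNT level. A median without Hey2 is not given here. The comparisons of the 2 hairpins with shNT use the same 3 shNT libraries. In bulk RNA, fewer cells of a type and less RNA per cell cannot be told apart.

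**Figure D1:**
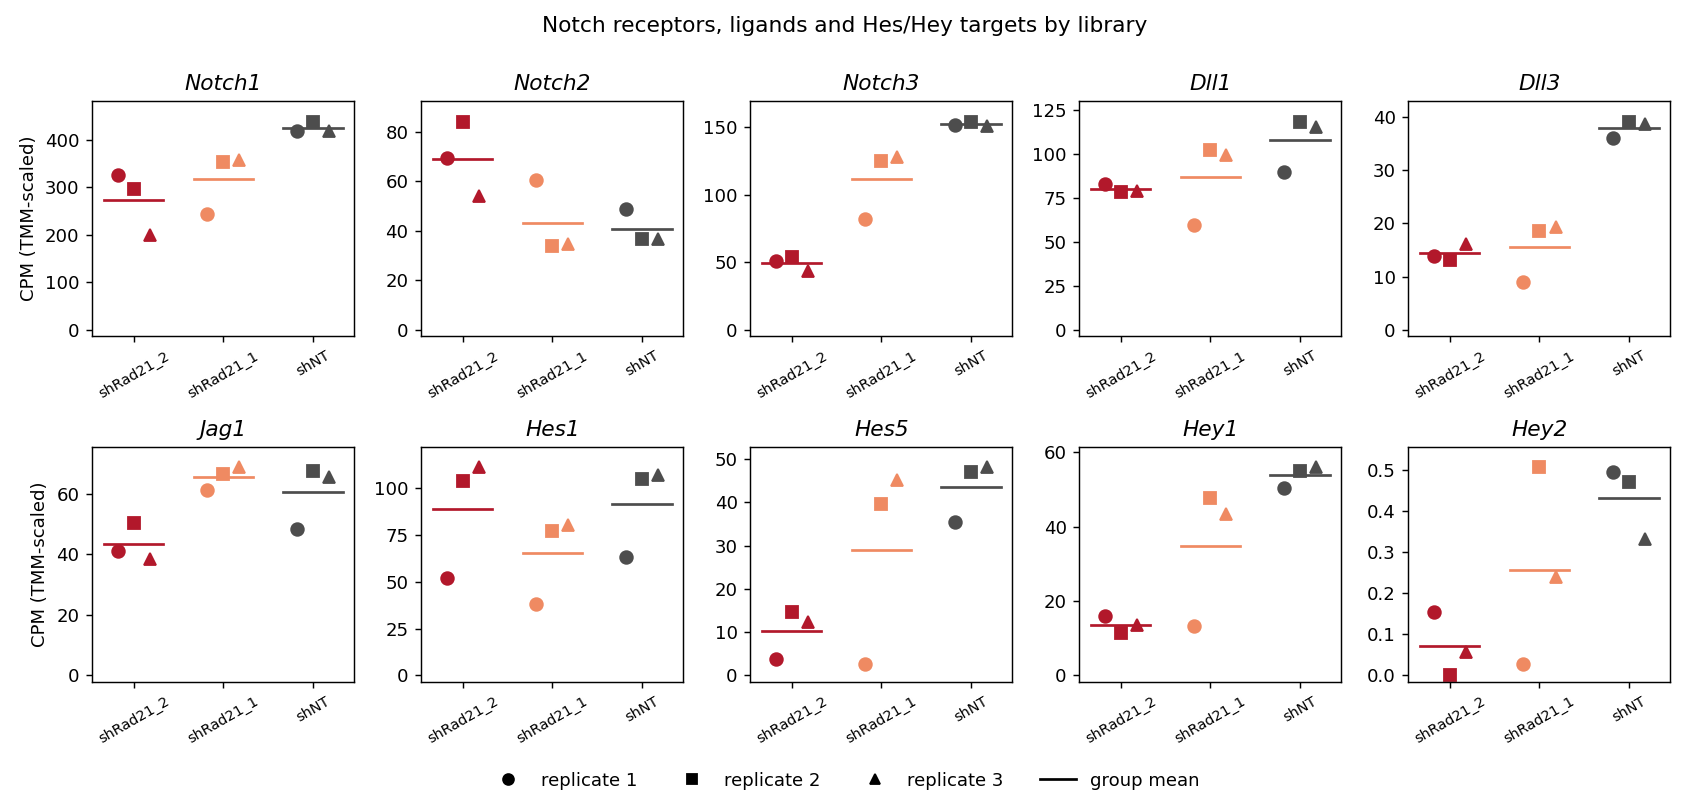
CPM of each of the 10 genes in the 9 libraries, with circles, squares and triangles for replicates 1, 2 and 3 and a line at each group mean. All 6 knockdown libraries lie below all 3 shNT libraries for Notch1, Notch3, Dll3 and Hey1, and replicate 1 is the lowest of each group for Hes1 and Hes5. The first of these is a description, as the share of all genes tested that lie this way is not given here.

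The libraries of a group were not equally far apart. Replicates 2 and 3 lay closer together than other pairs in shRad21_1 (chi-square of 2.18 per gene) and in shNT (3.18 per gene), where other pairs within a group gave between 23 and 69.6 and sampling alone gives about 1. Replicate 1 of shRad21_1 stood apart from its group: it had the lowest level of the group in 9 of the 10 genes, all but Notch2, in which it had the highest, and it was the lowest in 44.4% and the highest in 44.3% of all genes tested. Its ratio to the mean of replicates 2 and 3 was 0.0616 for Hes5, 0.0728 for Hey2, 0.293 for Hey1, between 0.476 and 0.906 for the other 6 genes in which it was the lowest, and 1.76 for Notch2. The depth of this library, 36786416 counts, was close to that of the other shRad21_1 libraries, which had 36954415 and 37014766. Results that rest on it are given with and without it below.

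Markers of other cell types were summed in each library. All 7 neural stem cell markers were detected in every library, with sums of 7150 to 8190 CPM in shRad21_2, 6850 to 8000 CPM in shRad21_1 and 8190 to 8500 CPM in shNT. The 8 astrocyte markers summed to 230 to 251 CPM in shRad21_2, 372 to 598 CPM in shRad21_1 with replicate 1 the lowest, and 694 to 730 CPM in shNT. With shRad21_2 against shNT, 6 of these 8 were lower (median log2 fold change -2.67), Gfap among them. Of all genes tested, 21.1% were called as higher and 22.5% as lower. Slc1a2 (-0.68) and Gja1 (0.52) were not called, and for Gja1 the shRad21_2 libraries all lay above the shNT libraries. Atp1b2 (mean 361 CPM) and Slc4a4 (196 CPM) made up most of the shNT sum, and Gja1 (155 CPM) most of the shRad21_2 sum. The astrocyte sums were lowest in shRad21_2 and highest in shNT. The means of Notch1, Notch3, Dll1, Dll3, Hes5, Hey1 and Hey2 had the same order. This is a description, as the share of all genes tested with this order is not given here. Hey2 was tested because of its shNT level. The part of astrocytes in the levels of these genes was not tested. The same comparison called 2 of 7 neural stem cell markers as higher and 3 as lower, 1 of 6 tested neuron markers as higher and 3 as lower, and 1 of 6 tested oligodendrocyte lineage markers as higher and 4 as lower. Of the markers called as lower, Gfap, Aqp4, Snap25 and Mbp reached the minimum of the filter in 0 of 3 shRad21_2 libraries, so they were tested only because of the other groups. The 7 neuron markers summed to 950 to 1080 CPM in shRad21_2, 901 to 1040 CPM in shRad21_1 and 762 to 905 CPM in shNT, and the 7 oligodendrocyte lineage markers to 2690 to 3090, 3090 to 3230 and 2750 to 2880 CPM in the same groups. Map2 made up most of the neuron sum, with means of 989 CPM in shRad21_2 and 793 CPM in shNT, and the 3 neuron markers called as lower were Dcx, Rbfox3 and Snap25. Olig1 and Olig2 made up most of the other sum. It hides a fall of Pdgfra from a mean of 62.3 CPM in shNT to 5.20 CPM in shRad21_2. Markers of vascular cells, which also use Notch3, Hey1 and Hey2, were low: the 7 mural markers summed to 1.11 to 1.33 CPM in shRad21_2, 5.22 to 11.7 CPM in shRad21_1 and 3.02 to 6.11 CPM in shNT, and the 6 endothelial markers to 1.63 to 2.73, 2.58 to 3.07 and 3.82 to 4.83 CPM. Cldn5 had 1 count in the 9 libraries together, and Flt1 was at 0 in all 3 shRad21_2 libraries. The part of these cells in the levels of Notch3, Hey1 and Hey2 was not tested. Microglia markers reached at most 3.16 CPM and fibroblast markers at most 0.931 CPM in any library.

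The sequence before the start site is shown for Hes5, Hey2 and Notch3, because Hes5 and Hey2 were the target genes with a promoter entry and Notch3 was the receptor with the largest fold change. Each sequence is the 250 bases before the RefSeq start on the strand of the gene (RefSeq, build GRCm38.p6), 5′ to 3′. Capitals mark matches, on either strand, to the RBPJ core TGGGAA in Hes5 and Hey2 and to the Hes-bound N-box CACNAG in Notch3. Hes5 is at chr4:154960673-154960922 (plus strand), Hey2 at chr10:30842784-30843033 (minus strand) and Notch3 at chr17:32166891-32167140 (minus strand).
Hes5: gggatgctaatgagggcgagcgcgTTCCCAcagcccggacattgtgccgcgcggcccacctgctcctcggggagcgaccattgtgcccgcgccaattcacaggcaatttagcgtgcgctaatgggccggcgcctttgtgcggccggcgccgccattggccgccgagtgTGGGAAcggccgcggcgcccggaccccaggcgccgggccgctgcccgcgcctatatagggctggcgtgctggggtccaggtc
Hey2: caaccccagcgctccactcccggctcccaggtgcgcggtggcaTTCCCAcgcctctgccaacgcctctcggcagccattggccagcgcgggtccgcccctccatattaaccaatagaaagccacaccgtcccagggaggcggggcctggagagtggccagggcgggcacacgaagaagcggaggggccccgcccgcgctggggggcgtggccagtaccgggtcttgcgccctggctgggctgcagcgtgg
Notch3: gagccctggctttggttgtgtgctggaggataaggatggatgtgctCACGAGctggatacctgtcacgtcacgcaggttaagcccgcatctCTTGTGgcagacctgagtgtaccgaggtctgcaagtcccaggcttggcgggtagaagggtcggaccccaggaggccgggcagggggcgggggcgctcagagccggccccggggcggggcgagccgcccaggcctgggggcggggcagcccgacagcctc
The Hes5 sequence holds 2 RBPJ cores, at bases -226 to -221 on the minus strand and -82 to -77 on the plus strand relative to the start. Hey2 holds 1, at -207 to -202. The RBPJ core occurs in 21.6% of the 32851 windows of 250 bases in the same table, and 2 or more of them in 2.77%. The Notch3 sequence holds 2 N-boxes, at -204 to -199 and -159 to -154, a motif present in 36.7% of all windows and 2 or more times in 8.18%. Notch1 and Notch2 each had 1 N-box, and the windows of Dll1, Dll3 and Jag1 held neither motif. The 2 motifs do not overlap in these windows. Of the 10 genes, 8 matched the promoter table, and Hes1 and Hey1 are named only. A match to letters is a description and does not show binding.

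Among the receptors, Notch3 fell the most with shRad21_2, Notch1 fell less and Notch2 rose. Notch3 (chromosome 17, 32120820 to 32166852, minus strand, mm10 with GENCODE M21) encodes a receptor best known from vascular smooth muscle and also present in neural progenitors. Its level was 50.8, 54.3 and 43.4 CPM in shRad21_2 libraries, 82.4, 125 and 128 CPM in shRad21_1 libraries, and 152, 154 and 151 CPM in shNT libraries. The 3 groups did not overlap, and the shRad21_2 libraries were the lowest. Against shNT, the log2 fold change was -1.62 (SE 0.16, adjusted p = 4.69e-05) with shRad21_2. With shRad21_1 it was -0.44 (SE 0.15, adjusted p = 0.0973), not called. DESeq2 called this decrease with adjusted p = 0.0456. Between the hairpins, shRad21_2 against shRad21_1, it was -1.18 (SE 0.15, adjusted p = 0.000787). Both called values were called under all 18 alternatives run on each, with log2 fold changes of -1.69 to -1.53 against shNT and -1.38 to -1.07 against shRad21_1.

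Notch1 (chromosome 2, 26457903 to 26516663, minus strand) is a main receptor of cortical progenitors. It had 327, 297 and 199 CPM in shRad21_2 libraries, 243, 353 and 358 CPM in shRad21_1 libraries, and 419, 438 and 418 CPM in shNT libraries. All 6 knockdown libraries were below all 3 shNT libraries, while the 2 hairpins overlapped. With shRad21_2 the log2 fold change against shNT was -0.63 (SE 0.19, adjusted p = 0.0204), and with shRad21_1 it was -0.42 (SE 0.19, adjusted p = 0.184). The call with shRad21_2 was lost without shRad21_2 replicate 3, the lowest library (log2 fold change -0.44, adjusted p = 0.0525), and without shNT replicate 2 (-0.61, adjusted p = 0.0605). Between the hairpins the value was -0.21 (adjusted p = 0.43).

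Notch2 (chromosome 3, 98013527 to 98150361, plus strand) encodes a receptor of the same family and was the 1 gene of 10 called as higher. It had 69.4, 83.9 and 53.8 CPM in shRad21_2 libraries, 60.5, 34.0 and 34.7 CPM in shRad21_1 libraries, and 48.6, 36.5 and 36.6 CPM in shNT libraries. The shRad21_2 libraries all lay above the shNT libraries, and replicate 1 was the highest of its group in shRad21_1 and in shNT. On the log2 scale the change in Notch2 was 0.77 (SE 0.24, adjusted p = 0.0253) with shRad21_2 and 0.09 (SE 0.24, adjusted p = 0.86) with shRad21_1 against shNT. The first of these was no longer called without shRad21_2 replicate 1 (0.76, adjusted p = 0.0583), shRad21_2 replicate 2 (0.61, adjusted p = 0.0929), shNT replicate 2 (0.70, adjusted p = 0.0867) or shNT replicate 3 (0.70, adjusted p = 0.0846). The second turned to -0.24 (adjusted p = 0.442) without shRad21_1 replicate 1. Between the hairpins the value was 0.68 (SE 0.24, adjusted p = 0.0588), and 1.01 (adjusted p = 0.00218) without that library. DESeq2 (adjusted p = 0.0161) and limma-voom (adjusted p = 0.0471) called the higher level of shRad21_2 over shRad21_1 with all libraries.

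Of the ligands, Dll3 was lower with both hairpins. Dll3 (chromosome 7, 28293553 to 28302238, minus strand) encodes a divergent Delta-like protein known to act on Notch within the same cell, not on neighbours. It had 13.8, 13.2 and 16.1 CPM in shRad21_2 libraries, 9.02, 18.5 and 19.4 CPM in shRad21_1 libraries, and 36.1, 39.1 and 38.7 CPM in shNT libraries. The lowest shNT library lay above every knockdown library, and the range of shRad21_1 enclosed that of shRad21_2. On the log2 scale the change in Dll3 was -1.40 (SE 0.24, adjusted p = 0.00116) with shRad21_2 and -1.28 (SE 0.23, adjusted p = 0.00944) with shRad21_1 against shNT. The hairpins differed by -0.12 (SE 0.23, adjusted p = 0.726). Without shRad21_1 replicate 1, the values were -1 (adjusted p = 0.00044) for shRad21_1 against shNT and -0.40 (adjusted p = 0.0177) for shRad21_2 against shRad21_1. The call with shRad21_2 against shNT was kept under all 18 alternatives, and that with shRad21_1 under 17 of them, the exception being the close pairs of libraries summed (-1.41, adjusted p = 0.0652).

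Jag1 (chromosome 2, 137081456 to 137116644, minus strand), a Jagged ligand, fell with shRad21_2 against both other groups. Each call was lost when certain single libraries were left out, with the direction kept. Jag1 had 41.2, 50.3 and 38.3 CPM in shRad21_2 libraries, 61.2, 66.4 and 68.7 CPM in shRad21_1 libraries, and 48.4, 67.6 and 65.6 CPM in shNT libraries. The shRad21_2 libraries were all below the shRad21_1 libraries, and they overlapped the shNT libraries through shNT replicate 1. With shRad21_2 the change in Jag1 on the log2 scale was -0.49 (SE 0.14, adjusted p = 0.0183) against shNT and -0.60 (SE 0.14, adjusted p = 0.0127) against shRad21_1. The value for shRad21_1 against shNT was 0.11 (SE 0.14, adjusted p = 0.662). The call against shNT was lost without shRad21_2 replicate 1 (-0.45, adjusted p = 0.0573) or replicate 3 (-0.41, adjusted p = 0.0686) and likewise when shNT replicate 2 (-0.40, adjusted p = 0.0775) or shNT replicate 3 (-0.42, adjusted p = 0.0705) was left out. The call against shRad21_1 was lost without shRad21_2 replicate 3 (-0.52, adjusted p = 0.051).

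Dll1 (chromosome 17, 15367354 to 15376872, minus strand), a Delta-like ligand that activates Notch on neighbouring cells, was not called in any of the 3 comparisons of the main fit. It had 82.9, 78.0 and 78.9 CPM in shRad21_2 libraries, 59.6, 102 and 99.3 CPM in shRad21_1 libraries, and 89.5, 118 and 115 CPM in shNT libraries. The shRad21_2 libraries lay close together and below the 3 shNT libraries. On the log2 scale the change in Dll1 was -0.42 (SE 0.18, adjusted p = 0.0847) with shRad21_2 and -0.30 (SE 0.18, adjusted p = 0.327) with shRad21_1 against shNT, and -0.12 (adjusted p = 0.657) between the hairpins. Without shRad21_1 replicate 1, shRad21_2 was lower than shRad21_1 (-0.33, adjusted p = 0.0428). Of 18 alternatives run on each comparison, Dll1 was called under 4 for shRad21_2 against shNT. It was called under 1 for shRad21_1 against shNT and under 3 between the hairpins.

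The calls differed among the 4 target genes. Hey1 fell with shRad21_2, Hey2 was called as lower near the limit of detection, Hes5 had a log2 fold change of -2.09 that missed the threshold, and Hes1 had one of -0.04 that was not called. In edgeR, shRad21_1 against shNT called 0 of the 4 target genes, with 0 at an unadjusted p under 0.05, and DESeq2 and limma-voom also called 0. The share of all genes called was 9.82% with edgeR, 15.1% with DESeq2 and 10.7% with limma-voom.

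Hes1 (chromosome 16, 30064384 to 30067796, plus strand) is the repressor whose level oscillates in neural progenitors and which also answers to signals other than Notch. It had 51.9, 104 and 111 CPM in shRad21_2 libraries, 38.2, 77.0 and 80.5 CPM in shRad21_1 libraries, and 63.1, 105 and 107 CPM in shNT libraries. Replicate 1 was the lowest library in each of the 3 groups, and all groups overlapped. The same held for Hes5 and for 8.19% of all genes tested, 1111 of 13560. Without a block, the log2 fold change was -0.04 (SE 0.34, adjusted p = 0.931) with shRad21_2 and -0.49 (SE 0.34, adjusted p = 0.402) with shRad21_1 against shNT, and 0.45 (SE 0.34, adjusted p = 0.359) between the hairpins. Taken by replicate number, shRad21_1 was at 0.606, 0.734 and 0.754 times shNT. Whether the replicate numbers pair the libraries of shRad21_1 and shNT is not known. With the replicate number as a block, Hes1 was lower with shRad21_1 (-0.53, adjusted p = 0.0105). This made 2 called genes of 10 in place of 1, against 10.6% of all genes tested under the same block. Replicates 2 and 3 are close to each other in both groups, so the 3 pairs may not be 3 independent ones. With these close pairs summed Hes1 was not called (-0.53, adjusted p = 0.619). With shRad21_2 the ratio to shNT was 0.822, 0.993 and 1.04.

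Hes5 (chromosome 4, 154960923 to 154962371, plus strand), a repressor whose expression in the cortex depends on Notch, varied widely between libraries. It had 3.72, 14.6 and 12.4 CPM in shRad21_2 libraries, 2.61, 39.6 and 45.1 CPM in shRad21_1 libraries, and 35.5, 47.0 and 48.1 CPM in shNT libraries. These levels rest on 168, 498 and 436 counts in shRad21_2, on 96, 1486 and 1695 counts in shRad21_1, and on 1292, 1990 and 2167 counts in shNT, so counting error is small beside the spread. All 3 shRad21_2 libraries were below all 3 shNT libraries, whereas in shRad21_1 the first library was the lowest of all 9 and the other two lay near shNT. For shRad21_2 against shNT the log2 fold change was -2.09 (SE 0.78, adjusted p = 0.0525), just over the threshold, and 6 of 18 alternatives called it, with values of -2.44 to -1.69 and adjusted p of 2.22e-05 to 0.15 over all 18. With shRad21_1 against shNT it was -0.58 (SE 0.74, adjusted p = 0.671), and -0.04 (adjusted p = 0.965) without shRad21_1 replicate 1. Between the hairpins it was -1.51 (SE 0.77, adjusted p = 0.173), and -2.06 (adjusted p = 0.00306) without that library.

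Hey1 (chromosome 3, 8663359 to 8667256, minus strand) encodes a related repressor. It had 16.0, 11.3 and 13.5 CPM in shRad21_2 libraries, 13.3, 47.7 and 43.3 CPM in shRad21_1 libraries, and 50.4, 54.9 and 55.9 CPM in shNT libraries. All 6 knockdown libraries were below the shNT libraries, and the first shRad21_1 library lay inside the range of shRad21_2. The log2 fold change with shRad21_2 against shNT was -1.98 (SE 0.37, adjusted p = 0.00219), called under all 18 alternatives with values of -2.16 to -1.86. With shRad21_1 it was -0.63 (SE 0.36, adjusted p = 0.302), and -0.24 (adjusted p = 0.284) without replicate 1 of that group. Between the hairpins it was -1.36 (SE 0.37, adjusted p = 0.0238), and -1.74 (adjusted p = 6.54e-06) without shRad21_1 replicate 1. That call was lost without shRad21_1 replicate 2 (-1.06, adjusted p = 0.086) or replicate 3 (-1.17, adjusted p = 0.077) and without shRad21_2 replicate 2 (-1.24, adjusted p = 0.0747) or replicate 3 (-1.35, adjusted p = 0.0762).

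Hey2 (chromosome 10, 30832359 to 30842801, minus strand), best known from the heart and vessels, was near the limit of detection in every library. It had 7, 0 and 2 counts in shRad21_2 libraries, 1, 19 and 9 counts in shRad21_1 libraries, and 18, 20 and 15 counts in shNT libraries. These are levels of 0.155, 0 and 0.0571 CPM with shRad21_2, 0.0272, 0.507 and 0.239 CPM with shRad21_1, and 0.495, 0.472 and 0.333 CPM with shNT, where 3 counts correspond to 0.0664 to 0.088 CPM depending on the library. The shRad21_2 libraries were all below the shNT libraries, and shRad21_1 overlapped both. Summed over libraries, the ratio of shRad21_2 to shNT was 0.184, with an exact Clopper-Pearson 95% interval of 0.0798 to 0.376 that covers counting error only. Hey2 reached the minimum of the filter, 0.271 CPM, in 0 shRad21_2 libraries, 1 shRad21_1 library and 3 shNT libraries, so it was tested because of its shNT level. In the fit, the log2 fold change was -2.44 (SE 0.89, adjusted p = 0.0472), called under 8 of 17 alternatives and not called with no filter beyond a count in any library (-2.45, adjusted p = 0.0525). The call was lost when shNT replicate 1, 2 or 3 was left out (adjusted p of 0.0994, 0.108 and 0.0762, log2 fold changes of -2.34, -2.38 and -2.61) and without shRad21_2 replicate 2 (-1.94, adjusted p = 0.115) or replicate 3 (-2.29, adjusted p = 0.125). For shRad21_1 against shNT the value was -0.73 (SE 0.74, adjusted p = 0.583). Between the hairpins it was -1.71 (SE 0.94, adjusted p = 0.205), and -2.22 (adjusted p = 0.0429) without shRad21_1 replicate 1.

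**Figure D2:**
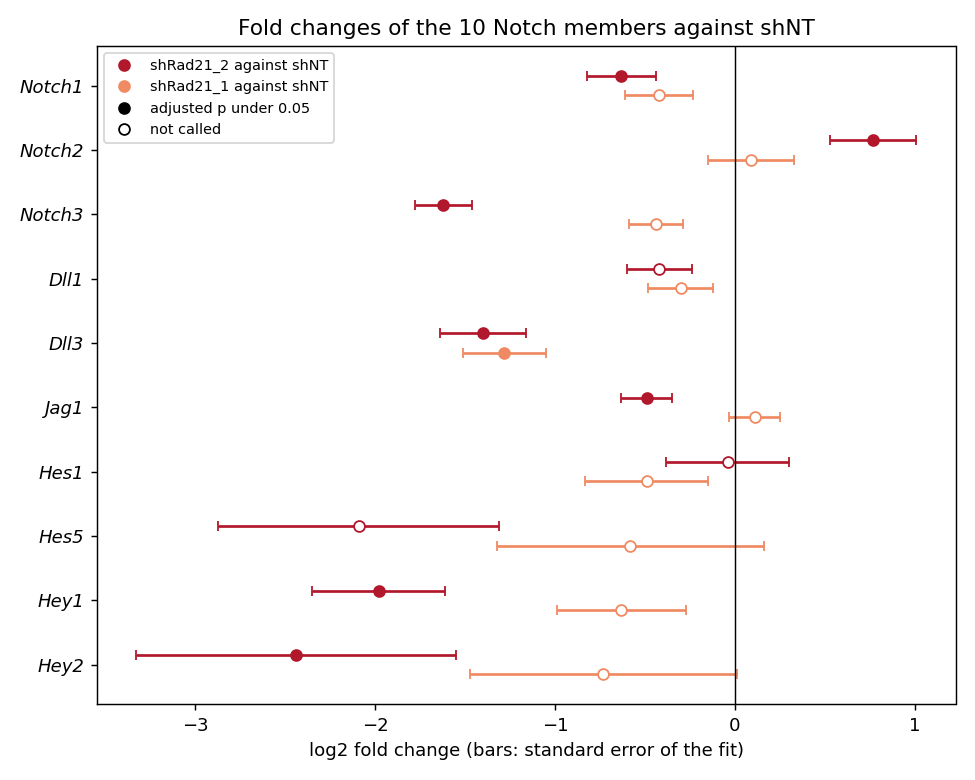
Log2 fold changes of the 10 genes with shRad21_2 (dark red) and shRad21_1 (orange) against shNT, where bars are standard errors of the edgeR fit and filled points have an adjusted p under 0.05. Dll3 is filled for both hairpins at -1.40 and -1.28, Notch3 lies at -1.62 and -0.44, and the bars of Hes5 and Hey2 are the widest.

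Set directly against each other, the 2 hairpins differed in Notch3, Jag1 and Hey1, all lower with shRad21_2. The libraries did not overlap for Notch3 and Jag1, and for Hey1 they overlapped through the first shRad21_1 library. Their share, 3 of 10 genes, lies near the 26.3% of all genes tested. Without that library, 8 of the 10 genes were called, 1 as higher and 7 as lower, against 32.7% of all genes tested, 14.8% as higher and 17.9% as lower. That library was the lowest of its group in 9 of the 10 genes and the highest in Notch2. Leaving it out therefore moves them in these directions by itself, and the count cannot show whether the hairpins differ more in these genes than in others. Hey2, among the 8, was tested because of its shNT level. Rad21 itself was lower with shRad21_2 than with shRad21_1 by a log2 fold change of -1.08. Whether the differences between hairpins go with the remaining Rad21 was not tested.

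Compared per kilobase of annotated exon, so that genes of different length can be set side by side, Hes1 had the highest mean of the 10 genes in each group. It averaged 43.7 ± 15.9 CPM per kb in shRad21_2, 32.0 ± 11.5 in shRad21_1 and 45.0 ± 12.2 in shNT (SD, n = 3 each). In shNT it was followed by Hes5 (31.9 ± 5.12), Notch1 (29.9 ± 0.792), Dll1 (25.5 ± 3.71), Notch3 (18.8 ± 0.189), Hey1 (16.5 ± 0.897), Dll3 (13.3 ± 0.572), Jag1 (10.4 ± 1.81), Notch2 (3.76 ± 0.645) and Hey2 (0.0943 ± 0.0191 CPM per kb). In this order the shNT ranges of Hes1 and Hes5 overlapped, as did those of Hes5 and Notch1, and no other neighbours did. In shRad21_2, Notch1 (19.3 ± 4.70) and Dll1 (18.9 ± 0.618) followed Hes1. Hes5 (7.51 ± 4.22), Jag1 (7.43 ± 1.07), Notch2 (6.40 ± 1.40), Notch3 (6.12 ± 0.688), Dll3 (5.04 ± 0.537) and Hey1 (4.17 ± 0.72 CPM per kb) then lay within a narrow span, in which each overlapped its neighbour. In shRad21_1, Notch1 (22.3 ± 4.57), Hes5 (21.4 ± 17.0) and Dll1 (20.6 ± 5.63) followed Hes1, and Notch2 stood at 3.99 ± 1.40 CPM per kb. Notch3 was thus the higher of the pair with Notch2 in shNT, with 18.8 against 3.76 CPM per kb, while in shRad21_2 their ranges overlapped.

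**Figure D3:**
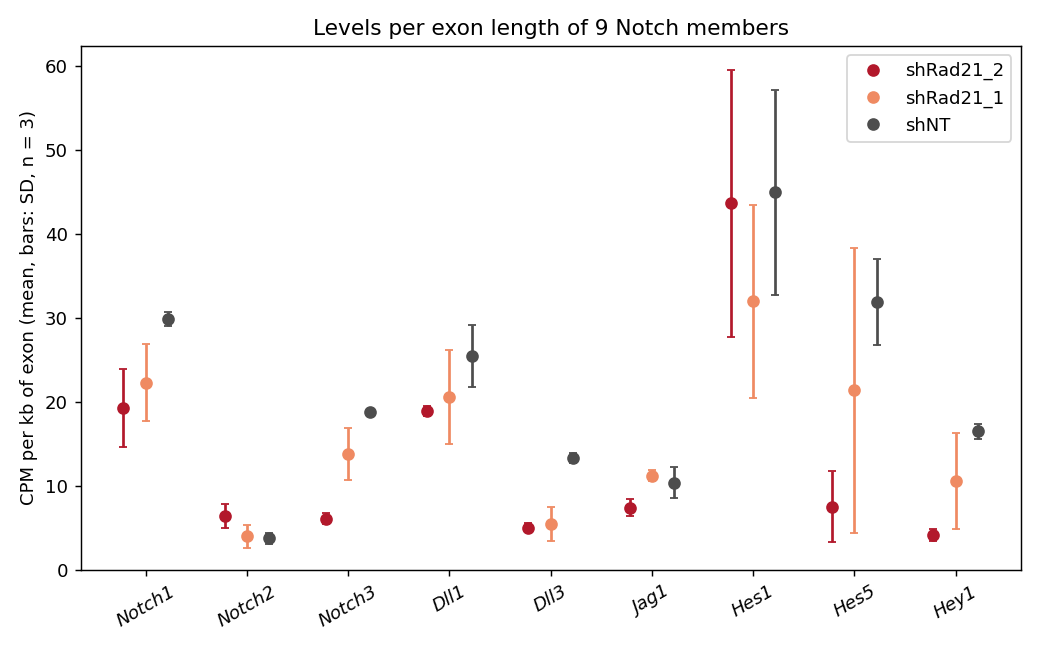
Mean CPM per kb of exon of 9 of the genes in shRad21_2, shRad21_1 and shNT, with bars of 1 SD over 3 libraries; Hey2, at 0.0943 CPM per kb or less, is not drawn. In shRad21_2 the means of Hes5, Jag1, Notch2, Notch3, Dll3 and Hey1 all lie between 4.17 and 7.51, and Hes1 stands at 43.7.

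Other genes of the pathway were taken from lists of 66 genes, of which 57 were tested. With shRad21_2 against shNT, 27 were called, 11 as higher and 16 as lower (47.4%, median log2 fold change -0.04). With shRad21_1 against shNT, 13 were called, 4 as higher and 9 as lower (22.8%, median 0.01). With shRad21_2 against shRad21_1, 12 were called, 5 as higher and 7 as lower (21.1%, median -0.04). For shRad21_2 against shNT and against shRad21_1 these shares lie near the backgrounds given above. With the close pairs of libraries summed, Dner and Neurl1a were the 2 genes still called for shRad21_1 against shNT.

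Among 4 tested receptors, ligands and ligand-like genes, Dner and Jag2 were called with both hairpins, in opposite directions. That is 50% of the 4 with each hairpin, beside 43.6% of all genes tested with shRad21_2 and 9.82% with shRad21_1. Dner, a neuronal ligand-like protein, had 24.0, 20.4 and 21.0 CPM in shRad21_2 libraries, 43.1, 56.7 and 62.6 CPM in shRad21_1 libraries, and 103, 92.0 and 93.4 CPM in shNT libraries. The groups did not overlap, and the log2 fold change was -2.14 (SE 0.14, adjusted p = 4.55e-06) with shRad21_2 and -0.83 (SE 0.13, adjusted p = 0.00509) with shRad21_1 against shNT. Between the hairpins Dner was also lower with shRad21_2 (-1.31, adjusted p = 0.000185). Jag2, the second Jagged ligand, was low everywhere, with 1.82, 2.32 and 1.66 CPM in shRad21_2 libraries, 1.69, 2.99 and 2.58 CPM in shRad21_1 libraries, and 0.935, 1.39 and 1.06 CPM in shNT libraries. It was higher with shRad21_2 (0.76, SE 0.28, adjusted p = 0.0463) and with shRad21_1 (1.09, SE 0.27, adjusted p = 0.034) than with shNT. Both Jag2 calls were close to the threshold, and leaving out most single libraries ended them without changing the direction. That with shRad21_2 was lost without shRad21_2 replicate 1, 2 or 3 or shNT replicate 1 or 3 (adjusted p of 0.0556 to 0.133, log2 fold changes of 0.62 to 0.86). That with shRad21_1 was lost without shRad21_1 replicate 2 or 3 or shNT replicate 1, 2 or 3 (adjusted p of 0.068 to 0.132, log2 fold changes of 0.91 to 1.27).

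Of 18 genes for glycosylation, endocytosis and turnover, shRad21_2 against shNT called 2 as higher and 5 as lower, and shRad21_1 against shNT called 2, both lower. These shares, 38.9% and 11.1%, lie near the 43.6% and 9.82% of all genes tested. Lfng, the Fringe enzyme that alters which ligands a receptor answers to, had 187, 157 and 166 CPM in shRad21_2 libraries, 184, 225 and 225 CPM in shRad21_1 libraries, and 253, 280 and 293 CPM in shNT libraries. Its log2 fold change was -0.70 (SE 0.10, adjusted p = 0.000612) with shRad21_2 and -0.38 (SE 0.10, adjusted p = 0.0457) with shRad21_1. The Lfng call with shRad21_1 was lost with the replicate number as a block (-0.38, adjusted p = 0.0593) and whichever 1 of the 6 libraries compared was left out (adjusted p of 0.0541 to 0.18). Neurl1a, a ubiquitin ligase of the Neuralized family that acts in ligand endocytosis, averaged 13.5 ± 1.8 CPM in shRad21_2, 15.7 ± 1.5 CPM in shRad21_1 and 34.9 ± 6 CPM in shNT (SD, n = 3 each). It was lower with shRad21_2 (-1.37, adjusted p = 8.73e-05) and with shRad21_1 (-1.15, adjusted p = 0.00188). Between the hairpins, Lfng, the ubiquitin ligase gene Itch and the Deltex family gene Dtx3l were lower with shRad21_2, with log2 fold changes of -0.31, -0.33 and -1.05. That of Lfng was not called without replicate 2 or 3 of either hairpin (adjusted p of 0.121 to 0.163). Mfng, a further Fringe enzyme named after its values were seen, had 1.11, 0.938 and 1.48 CPM in shRad21_2 libraries, 0.435, 4.94 and 6.14 CPM in shRad21_1 libraries, and 11.7, 12.3 and 11.9 CPM in shNT libraries. It was lower with shRad21_2 (-3.34, SE 0.66, adjusted p = 0.00291), and the first shRad21_1 library was again the lowest of its group.

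The cleavage machinery had 10 tested genes, of which shRad21_2 against shNT called 1 as higher and 4 as lower, and shRad21_1 against shNT called 2, both lower. That is 50% and 20%, beside 43.6% and 9.82% of all genes tested. The 2 genes lower with both hairpins were the sheddases that make the first cut in an activated receptor. Adam10 had 223, 242 and 213 CPM in shRad21_2 libraries, 280, 278 and 280 CPM in shRad21_1 libraries, and 376, 360 and 357 CPM in shNT libraries. Its groups did not overlap, with log2 fold changes of -0.69 (SE 0.07, adjusted p = 5.55e-05) with shRad21_2 and -0.38 (SE 0.07, adjusted p = 0.00846) with shRad21_1. Adam17 averaged 96.4 ± 3.48 CPM in shRad21_2, 87.5 ± 3.68 CPM in shRad21_1 and 115 ± 2.59 CPM in shNT (SD, n = 3 each), with log2 fold changes of -0.25 (adjusted p = 0.0119) and -0.39 (adjusted p = 0.00675) against shNT. The first of these was not called without shNT replicate 2 (-0.23, adjusted p = 0.0579). Psenen, a subunit of the gamma-secretase that makes the second cut, was higher with shRad21_2 than with shNT (0.30, adjusted p = 0.038) and than with shRad21_1 (0.35, adjusted p = 0.0326). The Psenen call against shNT was lost without shRad21_2 replicate 1 or 3 or shNT replicate 1, 2 or 3 (adjusted p of 0.0726 to 0.12), and that against shRad21_1 without shRad21_2 replicate 1 or 3 or shRad21_1 replicate 2 or 3 (0.078 to 0.125).

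The nuclear complex and its corepressors, 20 tested genes, had 6 called as higher and 3 as lower with shRad21_2 against shNT, and 3 as higher and 2 as lower with shRad21_1 against shNT. That is 45% and 25%, beside 43.6% and 9.82% of all genes tested. Rbpj, the DNA-binding partner of the receptor fragment and named after its values were seen, had 110, 120 and 108 CPM in shRad21_2 libraries, 117, 112 and 112 CPM in shRad21_1 libraries, and 107, 98.4 and 101 CPM in shNT libraries. It was not called with shRad21_2 (0.14, SE 0.07, adjusted p = 0.125) or with shRad21_1 (0.15, SE 0.07, adjusted p = 0.19). Ctbp2, a corepressor, averaged 147 ± 7.70 CPM in shRad21_2, 113 ± 10.6 CPM in shRad21_1 and 85.5 ± 1.12 CPM in shNT (SD, n = 3 each). It was higher with shRad21_2 (0.78, adjusted p = 6.67e-05) and with shRad21_1 (0.40, adjusted p = 0.014) than with shNT, and higher with shRad21_2 than with shRad21_1 (0.38, adjusted p = 0.00775). Leaving out shNT replicate 2 or shNT replicate 3 ended the Ctbp2 call with shRad21_1 (0.41 and 0.39, adjusted p = 0.0622 and 0.0708). The histone deacetylase gene Hdac2 averaged 226 ± 15.7 CPM in shRad21_2, 368 ± 30.9 CPM in shRad21_1 and 305 ± 8.70 CPM in shNT. It was lower with shRad21_2 than with shNT (-0.44, adjusted p = 0.00223) and than with shRad21_1 (-0.70, adjusted p = 0.000425). The acetyltransferase gene Kat2a was higher with shRad21_2 than with shNT (0.66, adjusted p = 0.000164) and than with shRad21_1 (0.38, adjusted p = 0.00742). With shRad21_1 against shNT it was not called (0.28, adjusted p = 0.0517).

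Among the other Hes and Hey genes and feedback genes, 3 of 6 were tested. Nrarp, a direct Notch target that feeds back on the receptor fragment, had 19.2, 19.0 and 18 CPM in shRad21_2 libraries, 21.9, 46.3 and 44.6 CPM in shRad21_1 libraries, and 92.2, 65.2 and 65.5 CPM in shNT libraries. The 3 groups did not overlap. It was lower with shRad21_2 (-1.99, SE 0.26, adjusted p = 0.00025) and with shRad21_1 (-0.98, SE 0.25, adjusted p = 0.0343) than with shNT, and lower with shRad21_2 than with shRad21_1 (-1, adjusted p = 0.0167). The Nrarp call with shRad21_1 against shNT was lost with the replicate number as a block (-1.01, adjusted p = 0.0539) and whichever shNT library was left out (adjusted p of 0.0753 to 0.103). The one between the hairpins was lost without shRad21_2 replicate 3 or shRad21_1 replicate 2 or 3 (0.0602 to 0.0627). Hes6, which opposes Hes1 and is associated with neuronal commitment, had 157, 142 and 155 CPM in shRad21_2 libraries, 90.8, 117 and 110 CPM in shRad21_1 libraries, and 99.5, 124 and 131 CPM in shNT libraries. It was higher with shRad21_2 than with shNT (0.36, adjusted p = 0.0352) and than with shRad21_1 (0.52, adjusted p = 0.0125). The Hes6 call against shNT was lost without shRad21_2 replicate 1 or 3 or shNT replicate 1 or 2 (adjusted p of 0.0644 to 0.11).

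Among the proneural genes, Neurod4 was near the limit of detection, with 12 counts in the 3 shRad21_2 libraries together, 16 in shRad21_1 and 90 in shNT. It reached the minimum of the filter in the 3 shNT libraries and in 0 of the 6 knockdown libraries, so it was tested because it is high in shNT and its calls are conditional on that. The log2 fold change was -2.78 (adjusted p = 0.00149) with shRad21_2 and -2.33 (adjusted p = 0.0138) with shRad21_1. The second was not called without shRad21_1 replicate 2 (-2.16, adjusted p = 0.0557) or shNT replicate 3 (-2.33, adjusted p = 0.0565).

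**Figure D4:**
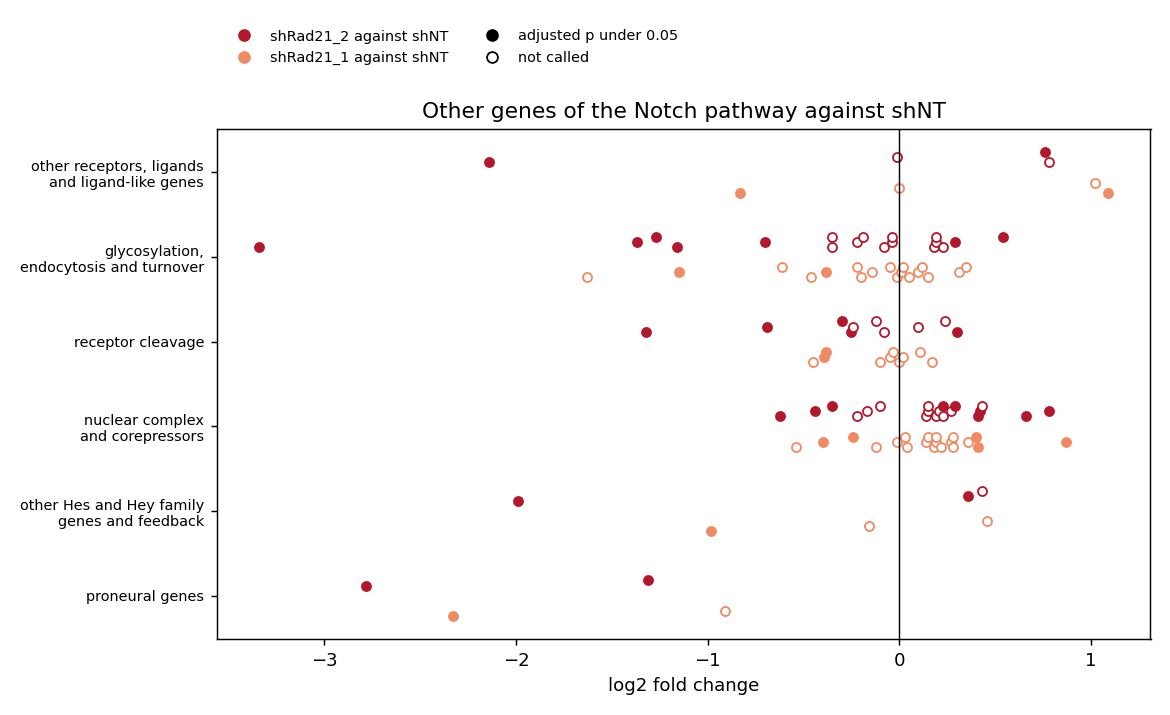
Log2 fold changes of the 57 other pathway genes tested, by list, with shRad21_2 (dark red, upper row of each list) and shRad21_1 (orange, lower row) against shNT, filled where the adjusted p is under 0.05. Mfng at -3.34, Neurod4 at -2.78, Dner at -2.14 and Nrarp at -1.99 are the lowest points for shRad21_2.

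By the pattern over the 9 libraries, the genes closest to Hes1 were Aldh18a1, Glipr2 and Dusp10, with root mean square differences of 0.223, 0.249 and 0.253 in centred log2 CPM. The genes closest to Hes5 were Lrrtm2 (0.543), Fos (0.583) and Egr4 (0.587), each farther from Hes5 than those named were from Hes1. Fos averaged 15.8 CPM in shRad21_2, 81.4 CPM in shRad21_1 and 123 CPM in shNT. These likenesses are descriptions over 9 libraries that share 3 groups.

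GENCODE M21 places a gene on the other strand over Notch1, Notch3, Dll1 and Hes5. No source used here gives the strand setting of the counts, so reads of these genes and of their antisense partners cannot be told apart. On the same strand, GENCODE M21 places Gm42819 and Gm42820 over Notch2 and Mir6996 over Notch1, which no strand setting would separate. Mir6996 had 0 counts in every library, and Gm42819 and Gm42820 have no row among the counts.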

How the data were processed

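Per the labels' protocols, total RNA was extracted, and mRNA was fragmented and copied into cDNA with random hexamers. Per the submitters' processing notes, FastQC, cutadapt, Trim Galore, Bowtie2, RSEM and the build mm10 were used, but versions and strand setting are not given in the sources used. The deposited values are whole-number counts per gene symbol whose sums differ between libraries, so they were taken as not normalized. From these, edgeR 4.0.16 in R 4.3.3 fitted all 9 libraries with 3 group means (TMM scaling, filterByExpr by group, quasi-likelihood test, two-sided, Benjamini-Hochberg over 13560 genes, threshold 0.05). Depth was 34780003 to 46644607 counts per library.

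The genes and lists were chosen with earlier results of these data known. Named were all 10 genes, the 4 other pathway genes with the smallest p per comparison, genes of lists with 3 or fewer called, and 3 genes most like Hes1 and Hes5; 1 gene of the lists is not reported here. Replicate numbers come from the labels. Deviations of same-numbered libraries correlated by 0.242, 0.116 and 0.117 between shRad21_1 and shNT. A shift of replicate 1 shared by both groups would also give such values, so pairing by number is not established. The main fit has no block, and the blocked value stands beside Hes1, Lfng and Nrarp.

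Alternatives were DESeq2 1.42.0 (size factors, Wald test), limma 3.58.1 (voom), unscaled totals, other filters, fits of 2 groups, a replicate block, single libraries left out, close pairs summed and first libraries left out or blocked. The edgeR test was checked on simulated data with independent libraries. That check does not cover the close pairs of libraries seen here. Positions and exon lengths come from GENCODE M21 for mm10.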

Additional observations from a re-analysis of the deposited data

Results flagged for a closer look

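The effect of the 2 hairpins differed by a test of the difference itself in 3 of the 10 genes, each lower with shRad21_2 than with shRad21_1. This share lies near the background of 26.3% of all genes tested. The log2 fold change of shRad21_2 against shRad21_1 was -1.18 for Notch3 (edgeR adjusted p = 0.000787), -0.60 for Jag1 (adjusted p = 0.0127) and -1.36 for Hey1 (adjusted p = 0.0238). For Notch3 and Jag1, all 3 shRad21_2 libraries were below all 3 shRad21_1 libraries. For Hey1, replicate 1 of shRad21_1 had 13.3 CPM, inside the range of 11.3 to 16.0 CPM of shRad21_2, and the other shRad21_1 libraries had 47.7 and 43.3 CPM.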

How the results depend on the processing

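With shRad21_2 against shNT, the calls of Notch3, Dll3 and Hey1, and with shRad21_2 against shRad21_1 that of Notch3, held under every alternative run. Of 536 values of single genes under 21 alternative settings, 453 kept direction and side of the threshold, 38 passed it newly, 32 lost it and 13 changed sign, none of which was called with all libraries. Scaling moved the median of all genes by at most -0.073. With a CPM of at least 1 in 3 libraries, Hey2 left the fit. The cause of the changes below was not tested; summing pairs and leaving out libraries leave fewer libraries to test. The use of replicate 1 as a 2-level block and of replicates 2 and 3 alone was chosen after seeing the data.

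In brackets is the share of all genes tested that was called under the same setting. Of the 10 genes, shRad21_2 against shNT called 7 (43.6%), and 3 with close pairs summed (27.2%). shRad21_1 against shNT called 1 (9.82%), and 2 each with the DESeq2 Wald test (15.1%), the replicate block (10.6%) and the 2-level block (14.8%). It called 3 with replicates 2 and 3 alone (20.6%) and 0 with close pairs summed (0.953%). shRad21_2 against shRad21_1 called 3 (26.3%), and 5 with the replicate block (26.9%), in which Notch2 and Hes1 were added. It called 5 with the 2-level block (31.3%) and 1 with close pairs summed (9.31%). With shNT and shRad21_1 replicate 1 left out it called 7 (34.6%), and with replicates 2 and 3 alone 10 (41.5%). These 2 settings drop shRad21_1 replicate 1, which was the lowest of its group in 9 of 10 genes and the highest in Notch2. Deviations of same-numbered libraries of shRad21_2 correlated by 0.064 to 0.083 with shNT and 0.017 to 0.089 with shRad21_1. Single libraries left out gave 3 to 6 for shRad21_2 against shNT (31.1% to 40.8%). The lowest count was without shNT replicate 2 (31.1%), with 4 each without shNT replicate 3 (31.4%) and shRad21_2 replicate 3 (37.8%). Single libraries left out gave 1 throughout for shRad21_1 against shNT (3.36% to 11.7%). Between the hairpins they gave 1 to 8, with 8 without shRad21_1 replicate 1 (32.7%) and 1 without shRad21_2 replicate 3 (18.4%).

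Of the other pathway genes, close pairs summed called 14 in place of 27 for shRad21_2 against shNT, where 27.2% of all genes were called. For shRad21_1 against shNT it was 2 in place of 13 (0.953% of all genes), and between the hairpins 3 in place of 12 (9.31%). Between the hairpins, 22 were called with shNT and shRad21_1 replicate 1 left out (34.6%) and 25 with replicates 2 and 3 alone (41.5%). Leaving out single libraries gave 16 to 27, 4 to 14 and 8 to 19 in the same order. The shares of all genes were 31.1% to 40.8%, 3.36% to 11.7% and 14.9% to 32.7%.

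Over all genes, close pairs summed called 3707 in place of 5917 for shRad21_2 against shNT, 130 in place of 1331 for shRad21_1 against shNT and 1270 in place of 3563 between the hairpins. For shRad21_1 against shNT, 2042 were called with the DESeq2 Wald test, 2001 with the 2-level block and 2800 with replicates 2 and 3 alone, and 460 to 1599 with single libraries left out. Between the hairpins, 2233 were called with only the 2 groups compared, 5650 with replicates 2 and 3 alone, and 2045 to 4486 with single libraries left out.

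Changes of sign were small. For shRad21_2 against shNT, Hes1 moved from -0.04 to 0.07 with close pairs summed and 0.02 with replicates 2 and 3 alone, and ranged from -0.25 to 0.23 with single libraries left out. For shRad21_1 against shNT, Notch2 moved from 0.09 to -0.09 with shNT and shRad21_1 replicate 1 left out and -0.09 with replicates 2 and 3 alone, and ranged from -0.24 to 0.23 with single libraries left out. Jag1 ranged from -0.03 to 0.20 likewise. Between the hairpins, Dll3 moved from -0.12 to 0.03 with close pairs summed and ranged from -0.40 to 0.06, and Dll1 from -0.33 to 0.01, with single libraries left out.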
